A study of Mus musculus with 12 samples.

Results

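The proteasome subunits examined here are the 43 protein-coding genes of the mouse expression table whose symbol is Psma, Psmb, Psmc, Psmd or Psme followed by a number, out of 22046 protein-coding genes and 54532 genes in all. The symbol alone decides which genes belong. They comprise 31 constitutive subunits of the 26S particle, 5 inducible genes (Psmb8, Psmb9, Psmb10, Psme1 and Psme2), the assembly chaperones Psmd5, Psmd9 and Psmd10, the activators Psme3 and Psme4, and the tissue-restricted subunits Psma8 and Psmb11. RNA-seq covered 12 libraries of cultured astrocytes (adult C57BL/6 mice, cortex together with hippocampus), in 3 experiments with 2 libraries per group. The first compared a conditional knockout of Ogt, the gene of the O-GlcNAc transferase (Ogt cKO), with its control at 4 months. Both groups carry the same genotype label, Glast-CreERT2::Ogtfloxp/Y, in which a tamoxifen-inducible Cre is driven by the promoter of the glial transporter Glast, so only the group name separates them and no tamoxifen step is described. The second compared astrocytes of a transgenic Alzheimer's disease model labelled 5X APP (AD model) with wild type at 6 months per the sample labels and 5 months per the series text. The third compared wild-type astrocytes of 2 months given 20 µM Aβ 1-42, the amyloid peptide, for 72 hours (1 sample is labelled 73 hours) with untreated ones. Whether both libraries of a group have their own animal or culture is not stated, so the p-values measure only the spread between these samples, which may be technical. AD model and Aβ-treated libraries are together called the amyloid libraries below.

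The proteasome degrades ubiquitin-tagged proteins. Its 20S core stacks rings of alpha subunits, which gate the channel, around rings of beta subunits, and only Psmb5, Psmb6 and Psmb7 carry the constitutive proteolytic sites. The 19S cap, built of the Psmc ATPases and the Psmd subunits, recognises and unfolds substrates. Interferon induces Psmb8, Psmb9 and Psmb10, which take the places of Psmb5, Psmb6 and Psmb7 in newly built particles to form the immunoproteasome, and it induces Psme1 and Psme2, the alpha and beta chains of the PA28 activator. The altered core favours peptides that fit MHC class I molecules, and glia are known to express it in inflamed brain.

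The upstream sequences of the 3 inducible catalytic genes are shown because these genes moved together in the amyloid experiments. Each is the 250 bases before the RefSeq transcription start on GRCm38.p6, the assembly that mm10 names, written 5′ to 3′ on the gene's strand. Each start lies inside the gene's span in the expression table. Capitals mark a match to an interferon-response motif.
Psmb8 (chr17:34197945-34198194, plus strand): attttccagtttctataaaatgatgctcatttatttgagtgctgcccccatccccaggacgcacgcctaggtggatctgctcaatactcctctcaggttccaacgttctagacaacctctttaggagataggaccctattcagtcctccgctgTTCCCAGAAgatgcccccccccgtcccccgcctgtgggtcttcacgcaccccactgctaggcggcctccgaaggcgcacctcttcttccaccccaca
Psmb9 (chr17:34187331-34187580, minus strand): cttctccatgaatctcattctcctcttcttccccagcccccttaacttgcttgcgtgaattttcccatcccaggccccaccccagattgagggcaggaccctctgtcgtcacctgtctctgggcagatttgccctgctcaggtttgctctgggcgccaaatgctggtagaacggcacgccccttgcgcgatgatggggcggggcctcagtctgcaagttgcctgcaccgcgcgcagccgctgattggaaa
Psmb10 (chr8:105938393-105938642, minus strand): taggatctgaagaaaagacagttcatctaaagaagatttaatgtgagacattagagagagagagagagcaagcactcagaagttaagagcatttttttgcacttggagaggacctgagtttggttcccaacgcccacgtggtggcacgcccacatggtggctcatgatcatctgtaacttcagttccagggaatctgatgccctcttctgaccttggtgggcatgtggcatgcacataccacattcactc
The motifs were searched on both strands: ISRE (GAAANNGAA), the interferon-stimulated response element, GAS (TTCNNNGAA), the interferon gamma-activated site, and ARE (TGACNNNGC), the antioxidant element. Of the 43 genes, 36 had an entry in the RefSeq promoter table. Among the 5 inducible genes, 1 window held a GAS match, that of Psmb8, where TTCCCAGAA lies 97 bases before the start, and no window held an ISRE or ARE match. Among the other 31 genes with an entry, 3 windows held an ISRE match (Psmb3, Psmd4 and Psmd9), 0 a GAS match and 5 an ARE match (Psmb5, Psmb6, Psmc6, Psmd12 and Psmd9). Over all 32851 promoters, 7.13% held ISRE, 7.02% held GAS and 10.2% held ARE. A match to these letters describes the sequence and shows no binding. Psmb9 and the peptide transporter gene Tap1 start 226 bases apart on opposite strands, so the Psmb9 window contains the Tap1 start.

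Recovered totals were 16418852 to 18705309 reads per library, and 3 reads on a 1 kb transcript correspond to 0.145 to 0.191 FPKM (reads scaled to transcript length and library size). The library size behind the deposited values was not the recovered total. That total was 0.921 and 0.907 times this size in the cKO control libraries and 1.1 and 1.07 times in the Ogt cKO libraries. In the AD and Aβ experiments it was 0.886 to 1.08 times this size. Ogt itself, the targeted gene, had 20.8 and 24.7 FPKM in the cKO control libraries and 11 and 12 in the Ogt cKO libraries, a log2 change of −0.92 ± 0.30 (SE, adjusted p = 0.038), a call lost when any 1 library of that experiment was left out (adjusted p = 0.085 to 0.17), and when genes of low value were kept in (0.088). The summed level of 8 astrocyte markers was 72.4 to 449 FPKM per library, and the astrocyte intermediate filament gene Gfap was at 29.1 to 298 FPKM. Markers of other cells were present: 12 microglia and macrophage markers summed to 1034 to 9002 FPKM and 6 pericyte, smooth muscle and fibroblast markers to 441 to 4662 FPKM, while 5 lymphocyte markers summed to at most 0.259 FPKM. In such bulk cultures, fewer cells of a type and less RNA per cell cannot be told apart.

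Of the 43 genes, 42 reached 1 FPKM in at least 2 libraries and were tested. Psmb11, the subunit of the thymus cortex, stayed at 0 to 0.0601 FPKM and was not tested. The constitutive subunits were abundant in every library, with library medians of 42.6 to 69.3 FPKM and single genes from 16.5 to 196 FPKM. Their levels were unequal although the subunits occur in equal numbers in a particle: Psmb5, Psmb4, Psmd8, Psmd2 and Psma6 were each the highest in 1 or more libraries, and Psmd11, Psmd1 and Psmc6 the lowest. The inducible genes were lower, with sums of 60.6 to 85.9 FPKM in the 8 libraries outside the amyloid groups.

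**Figure D1:**
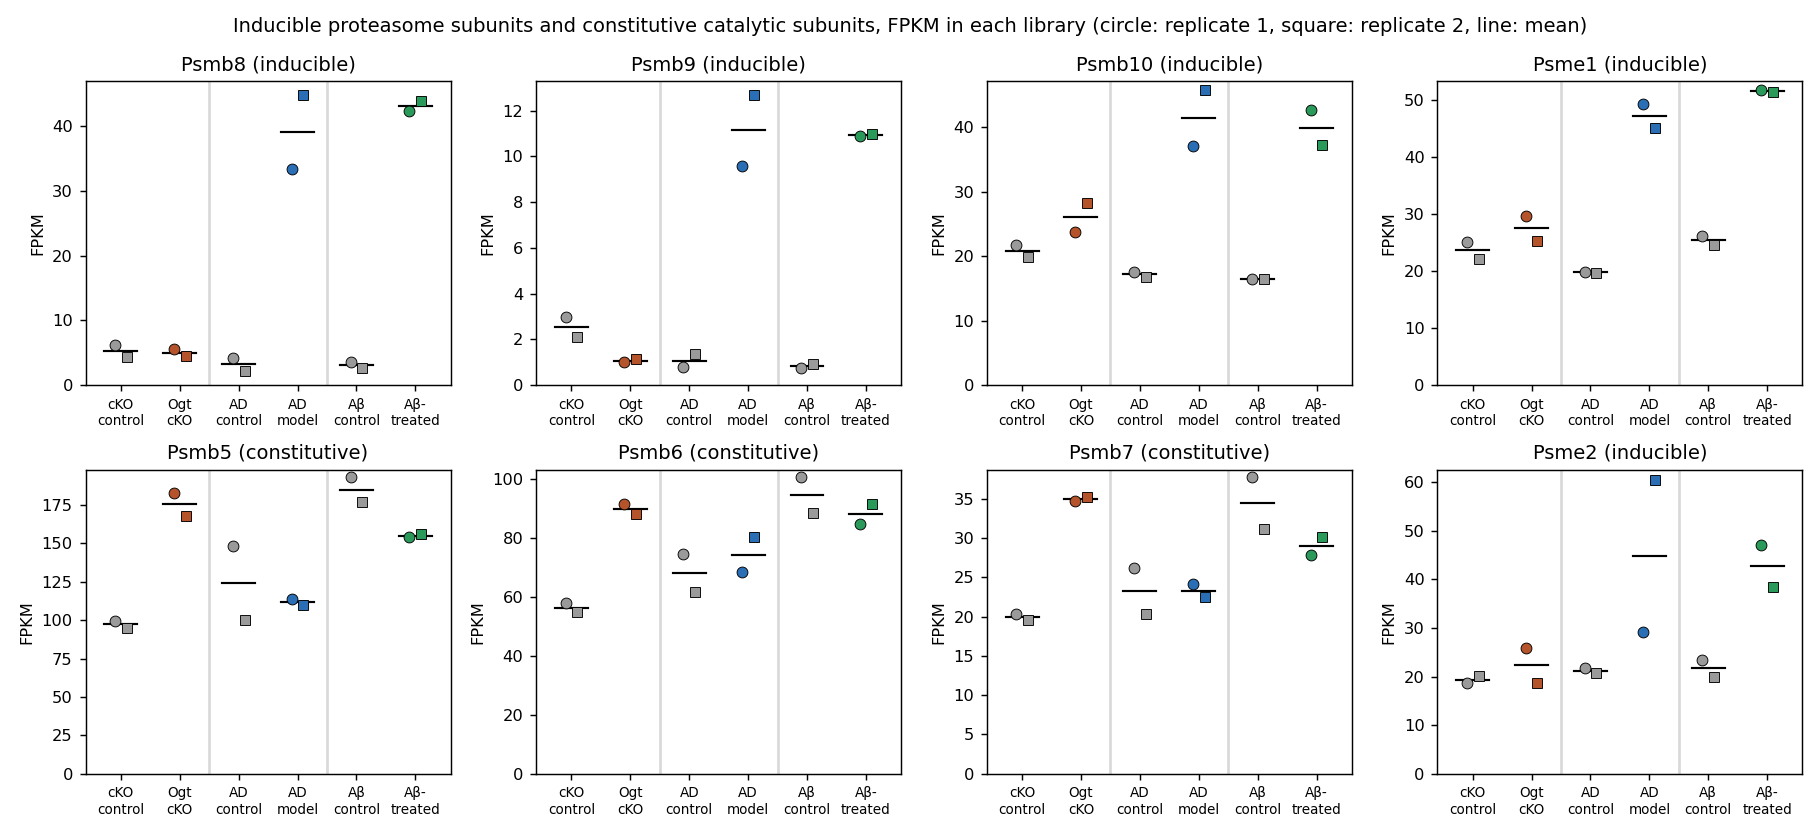
FPKM of the 5 inducible genes and of the constitutive catalytic genes Psmb5, Psmb6 and Psmb7 in each of the 12 libraries, with group means as lines. Psmb8 sits between 33.4 and 44.9 FPKM in the 4 AD model and Aβ-treated libraries and between 2.23 and 6.25 FPKM in the other 8.

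In the AD model astrocytes 4 immunoproteasome genes were higher and few constitutive ones passed the test. Psmb8 rose to 12.1 times its control mean, Psmb9 to 10.5 times, Psmb10 to 2.41 times and the PA28 alpha gene Psme1 to 2.39 times. Of the 42 tested genes, 8 passed as higher and 0 as lower, against 9.80% of all 14014 genes tested that passed as higher and 7.27% as lower in this comparison. The 8 were 4 of 5 inducible genes, 2 of 31 constitutive subunits, the chaperone Psmd10 and Psma8.

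Psmb8 (chr17:34197721-34201454) encodes the beta5i subunit, which replaces Psmb5. It had 4.23 and 2.23 FPKM in the wild-type libraries and 33.4 and 44.9 in the AD model libraries (39.1 ± 8.14, SD, n = 2, against 3.23 ± 1.41). Both AD model libraries lay far above both controls, and the log2 change was 3.27 ± 0.26 (SE, adjusted p = 7.1e-05). Here and below, log2 changes are of FPKM + 1, which understates the change of low genes.

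Psmb9 (chr17:34181988-34187764) encodes beta1i, the replacement for Psmb6. Its level was 0.794 and 1.34 FPKM in wild type and 9.60 and 12.7 FPKM in the AD model. The groups were far apart, with a log2 change of 2.56 ± 0.19 (adjusted p = 4.8e-05). Psmb9 overlaps Tap1 on the other strand by 212 bases, and with no statement on strandedness, reads in that overlap cannot be assigned to either gene. The antisense genes that overlap Psmb8 and Psmb10 were at no more than 0.288 and 0.272 FPKM.

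Psmb10 (chr8:105935735-105938444) encodes beta2i, the replacement for Psmb7, and started from a higher level. It had 17.6 and 16.8 FPKM in wild type and 37.1 and 45.7 FPKM in the AD model. The groups did not overlap, and the log2 change was 1.21 ± 0.14 (adjusted p = 6.7e-04). Fitted on the 4 libraries of this experiment alone, Psmb10 and Psme1 no longer passed (adjusted p = 0.076 and 0.064).

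Psme1 (chr14:55578123-55581529) and Psme2 (chr14:55587441-55591113) are neighbours that encode the PA28 chains. Psme1 had 19.9 and 19.6 FPKM in wild type and 49.3 and 45.0 FPKM in the AD model, with no overlap and a log2 change of 1.22 ± 0.12 (adjusted p = 3.0e-04). Psme2 had 21.8 and 20.7 FPKM in wild type and 29.1 and 60.5 FPKM in the AD model. The AD model libraries were both above the controls but far from each other, and the log2 change of 0.95 ± 0.30 did not pass (adjusted p = 0.06). Without AD model replicate 1 the Psme2 change was 1.47 and passed (adjusted p = 0.0029), and without AD model replicate 2 it was 0.43 and did not (adjusted p = 0.2).

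The constitutive partners gave no call in the AD model. Psmb5 had 148 and 99.8 FPKM in wild type and 114 and 110 FPKM in the AD model, with the AD model libraries inside the range of the controls (log2 change −0.12 ± 0.18, adjusted p = 0.72). Psmb6 changed by 0.13 (adjusted p = 0.61) and Psmb7 by 0.01 (adjusted p = 0.98). The median log2 change was 1.22 over the 5 inducible genes, 0.12 over the 31 constitutive ones and −0.02 over all genes tested.

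The 2 constitutive calls in the AD model, both alpha ring subunits, were 6.45% of the 31, below the 9.80% of all genes tested. Psma6 had 96.4 and 78.0 FPKM in wild type and 147 and 119 FPKM in the AD model (0.60 ± 0.17, adjusted p = 0.038). Psma1 had 33.7 and 31.1 FPKM in wild type and 44.3 and 45.6 FPKM in the AD model (0.46 ± 0.13, adjusted p = 0.045). The count of 2 fell to 0 without AD control replicate 2 or AD model replicate 1, and to 1 without AD control replicate 1 or AD model replicate 2. Leaving out any 1 of the 4 libraries also gave fewer calls than the 8. The 4 libraries alone gave 2, Psmb8 and Psmb9, in a fit where 1.71% of all genes tested were higher.

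All 5 inducible genes were higher in astrocytes given Aβ, each passing the test. Psmb8 reached 13.8 times its control mean, Psmb9 13.0 times, Psmb10 2.42 times, Psme1 2.03 times and Psme2 1.96 times. Psme4, the gene of the PA200 activator, reached 2.81 times. Of the 31 constitutive subunits 3 fell (9.68%, below the 15.1% of all genes tested). Among the 42 tested genes 9 were higher and 5 lower, where 20.8% of all genes tested were higher and 15.1% lower. Without treated replicate 1 or 2 the higher calls were 6, and without untreated replicate 1 or either treated replicate the lower calls were 0.

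Psmb8 had 3.61 and 2.63 FPKM in untreated and 42.4 and 43.9 FPKM in Aβ-treated astrocytes, with a log2 change of 3.43 ± 0.26 (adjusted p = 3.9e-05). Psmb9 had 0.760 and 0.928 FPKM untreated and 10.9 and 11.0 FPKM treated, with a change of 2.70 ± 0.19 (adjusted p = 3.0e-05). For both genes the treated libraries were close to each other and far above the untreated ones. Psmb10 had 16.5 FPKM in each untreated library and 42.7 and 37.2 FPKM treated (1.22 ± 0.14, adjusted p = 3.6e-04). Psme1 had 26.1 and 24.6 FPKM untreated and 51.7 and 51.3 FPKM treated (0.99 ± 0.12, adjusted p = 4.7e-04). Neither gene's groups overlapped.

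Psme2 was the least certain of the 5. It had 23.5 and 20.0 FPKM untreated and 47.0 and 38.4 FPKM treated, a change of 0.94 ± 0.30 (adjusted p = 0.037). The groups did not overlap, but the call was lost when any 1 library of this experiment was left out (adjusted p = 0.099 and 0.14 without untreated replicates 1 and 2, 0.18 and 0.076 without treated replicates 1 and 2) and with no filter on low values (0.082).

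The constitutive subunits leaned slightly the other way under Aβ, with a median log2 change of −0.23 over the 31 genes against 1.22 over the inducible genes and −0.04 over all genes tested. Positive changes were found in 5 of the 31, and the size of this lean depended on scaling, since quantile normalisation gave 11 positive and 19 negative changes with a median of −0.07. Psmb5 had 193 and 177 FPKM untreated and 154 and 156 FPKM treated (−0.25 ± 0.18, adjusted p = 0.29), and Psmb6 and Psmb7 changed by −0.10 and −0.23 without passing. Of the 31 constitutive genes 3 passed as lower (9.68%) and 2 as higher (6.45%), below the 15.1% and 20.8% of all genes tested.

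Psmd8, a 19S lid subunit, had 196 and 160 FPKM untreated and 110 and 114 FPKM treated, and fell by 0.66 ± 0.20 on the log2 scale (adjusted p = 0.032). The lid subunit Psmd6 fell by 0.36 (adjusted p = 0.029) and the structural beta subunit Psmb1 by 0.33 (adjusted p = 0.046). Psma6 went the other way, from 140 and 112 FPKM to 175 and 191 FPKM (0.54 ± 0.17, adjusted p = 0.032), as did the ATPase Psmc6, from 19.8 and 23.5 FPKM to 29.8 and 27.8 FPKM (0.40, adjusted p = 0.045). Each of these 5 calls was lost without at least 3 of the 4 libraries in turn. The 3 lower calls were 0 without untreated replicate 1 or either treated replicate and 5 without untreated replicate 2, and under quantile normalisation 1.

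**Figure D2:**
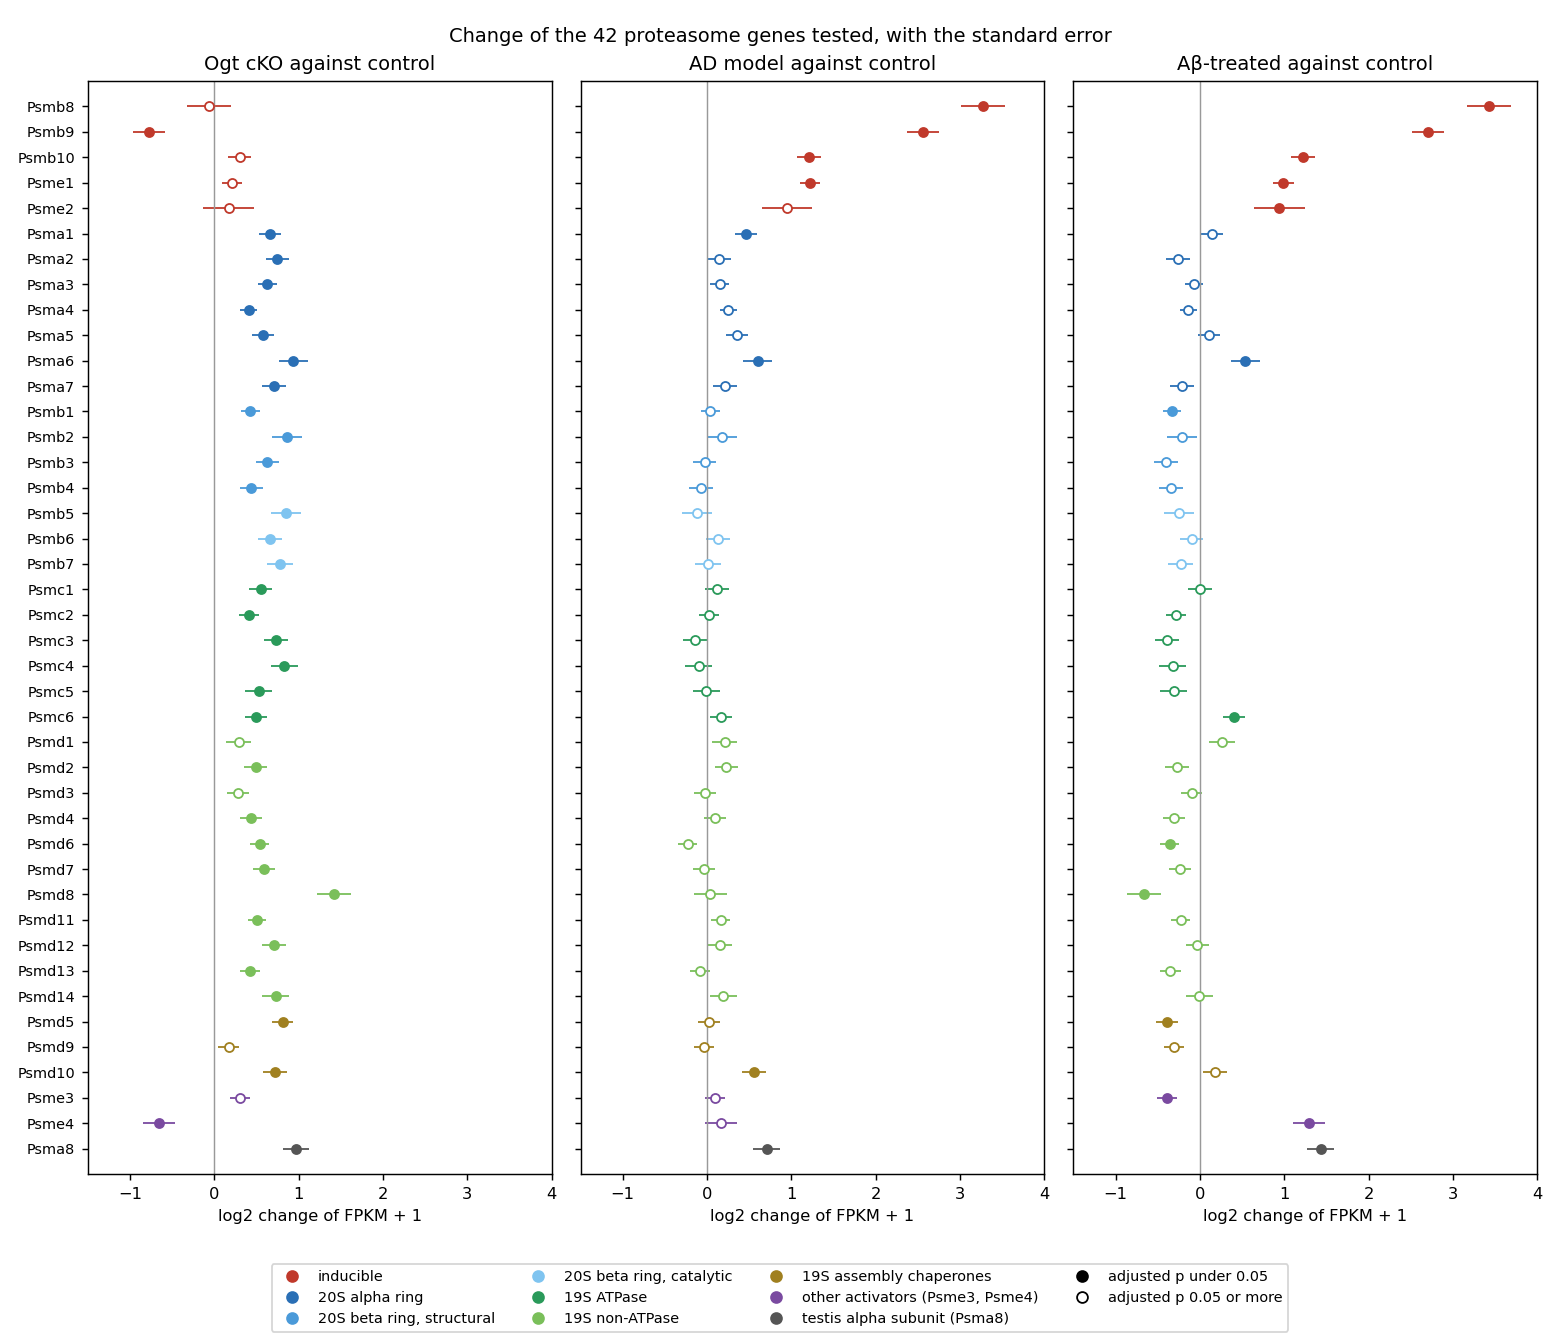
Log2 change of FPKM + 1 with its standard error for the 42 tested genes in the 3 comparisons, coloured by the part of the particle, filled where the adjusted p is under 0.05. The inducible genes stand to the right in the AD model and Aβ panels, up to 3.43 for Psmb8, and the constitutive genes stand to the right of 0 in the Ogt cKO panel.

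The Ogt cKO astrocytes showed the reverse arrangement: constitutive subunits were higher and no inducible gene was. Of the 31 constitutive subunits, 29 rose and 0 fell, among them all 7 alpha subunits, all 7 constitutive beta subunits, all 6 ATPases and 9 of 11 other 19S subunits. Of the 42 tested genes 32 were higher and 2 lower, while 22.6% of all genes tested were higher and 19.8% lower. The median change was 0.59 for the constitutive subunits, 0.17 for the inducible genes and −0.00 for all genes tested.

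These counts depended on single libraries. Leaving out cKO control replicate 1 brought the 29 constitutive calls to 18 (13.0% of all genes then called higher), and leaving out replicate 2 brought them to 11 (7.49%). Leaving out the first Ogt cKO library gave 8 (8.72%) and leaving out the second gave 18 (10.9%). They became 19 after rescaling to total reads, which puts the median of all genes at −0.19 and the share of all calls that are higher at 35.3% instead of 53.3%, and 15 with quantile normalisation. All 31 changes were positive under each of these scalings, with medians of 0.35 and 0.33. The 2 constitutive genes not called, Psmd1 and Psmd3, changed by 0.29 (adjusted p = 0.14) and 0.28 (adjusted p = 0.097).

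The largest constitutive change was that of Psmd8, with 66.4 and 55.3 FPKM in control and 166 and 161 FPKM in Ogt cKO libraries, 2.69 times the control mean (1.42 ± 0.20, adjusted p = 0.0021). Psma6 had 82.9 and 84.7 FPKM in control and 163 and 162 FPKM in Ogt cKO (0.94 ± 0.17, adjusted p = 0.0041). Psmb2, a structural beta subunit, had 57.6 and 58.9 FPKM in control and 109 and 104 FPKM in Ogt cKO (0.86, adjusted p = 0.0068). For these 3 genes the replicates were close and the groups well apart, but the Psmb2 call was lost without Ogt cKO replicate 1 (adjusted p = 0.051).

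Among the catalytic subunits, Psmb5 had 99.6 and 94.9 FPKM in control and 183 and 168 FPKM in Ogt cKO (0.85 ± 0.18, adjusted p = 0.0074). Psmb6 had 57.9 and 54.8 FPKM in control and 91.5 and 88.2 FPKM in Ogt cKO (0.66 ± 0.14, adjusted p = 0.0079). Psmb7 had 20.3 and 19.6 FPKM in control and 34.7 and 35.2 FPKM in Ogt cKO (0.78 ± 0.15, adjusted p = 0.005). None of the 3 overlapped between groups, yet the Psmb5 and Psmb6 calls were lost without cKO control replicate 2 (adjusted p = 0.057 and 0.064) or Ogt cKO replicate 1 (0.057 and 0.058). The Psmb7 locus shares 6571 bases with Nek6, which was at no more than 19.5 FPKM.

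The replacements of these 3 subunits did not follow them. Psmb8 had 6.25 and 4.38 FPKM in control and 5.51 and 4.53 FPKM in Ogt cKO, with overlapping groups (−0.06 ± 0.26, adjusted p = 0.87). Psmb9 fell, from 2.99 and 2.08 FPKM to 0.99 and 1.12 FPKM (−0.77 ± 0.19, adjusted p = 0.013). The Psmb9 call was lost without cKO control replicate 1 (adjusted p = 0.088), Ogt cKO replicate 1 (0.078) or Ogt cKO replicate 2 (0.053). Psmb10 had 21.8 and 19.9 FPKM in control and 23.8 and 28.2 FPKM in Ogt cKO (0.30 ± 0.14, adjusted p = 0.12). Psme1 changed by 0.21 ± 0.12 (adjusted p = 0.18) and Psme2 by 0.17 ± 0.30 (adjusted p = 0.65).

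The remaining subunits each had their own pattern. Psme4, which caps the core without ubiquitin, had 7.92 and 9.79 FPKM in cKO control and 4.85 and 5.70 FPKM in Ogt cKO, and fell by 0.65 ± 0.19 (adjusted p = 0.026). It had 9.63 and 12.1 FPKM in AD control and 11.1 and 13.2 FPKM in the AD model (0.16, adjusted p = 0.65), and 2.84 and 4.29 FPKM in untreated and 10.6 and 9.36 FPKM in Aβ-treated astrocytes (1.29 ± 0.19, adjusted p = 0.0013). Untreated astrocytes of the Aβ experiment were the lowest of all groups for this gene. Psme3, the nuclear PA28 gamma gene, fell by 0.39 under Aβ (adjusted p = 0.032) and did not pass elsewhere. The Psme4 call in Ogt cKO and the Psme3 call under Aβ were each lost without any 1 library of their experiment (adjusted p = 0.05 to 0.16 and 0.054 to 0.18), while the Psme4 call under Aβ held.

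The 19S chaperone gene Psmd5 rose by 0.81 in Ogt cKO (adjusted p = 0.003) and fell by 0.39 under Aβ (adjusted p = 0.043). Psmd10, the chaperone gankyrin, rose by 0.72 in Ogt cKO (adjusted p = 0.0058) and by 0.56 in the AD model (adjusted p = 0.026), and Psmd9 passed in no comparison. The Psmd5 call under Aβ was lost without any 1 of its 4 libraries (adjusted p = 0.078 to 0.19), and the Psmd10 call in the AD model without 3 of the 4 (0.053 to 0.098). Psma8, an alpha subunit known from testis, was scarce, with 0.282 to 5.23 FPKM from 9 to 150 reads per library. It rose in all 3 comparisons by 0.97, 0.71 and 1.43 (adjusted p = 0.0032, 0.014 and 2.7e-04). Its call in the AD model was lost without AD control replicate 2 (log2 change 0.551) or AD model replicate 1 (log2 change 0.632). Fitted on the 4 libraries of that experiment alone, it was lost as well (adjusted p = 0.23).

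Levels per transcript length allow each inducible catalytic gene to be set against the partner it replaces. Psmb8 made up 2.78% and 2.19% of the summed FPKM of Psmb8 and Psmb5 in AD control libraries and 22.7% and 28.9% in AD model libraries. It made up 1.83% and 1.46% in untreated and 21.6% and 22.0% in Aβ-treated libraries. In the Ogt cKO experiment the share was 5.90% and 4.41% in control and 2.92% and 2.63% in Ogt cKO. The share was thus higher in every amyloid library than in any other library, and lower in Ogt cKO than in its control.

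The Psmb9 share of Psmb9 and Psmb6 was 1.05% and 2.12% in AD control, 12.3% and 13.6% in the AD model, 0.750% and 1.04% in untreated and 11.4% and 10.7% in Aβ-treated libraries. It was 4.91% and 3.66% in cKO control and 1.07% and 1.26% in Ogt cKO. Psmb10 was already close in level to Psmb7: its share was 40.1% and 45.2% in AD control, 60.6% and 67.0% in the AD model, 30.4% and 34.7% in untreated and 60.5% and 55.2% in Aβ-treated libraries, and 51.8% and 50.4% in cKO control against 40.7% and 44.5% in Ogt cKO. No pair overlapped between the groups of any experiment, but with 2 libraries a side the smallest p of an exact two-sided permutation test is 0.333, so the shares stand as values. Transcript shares do not measure the composition of assembled particles.

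**Figure D3:**
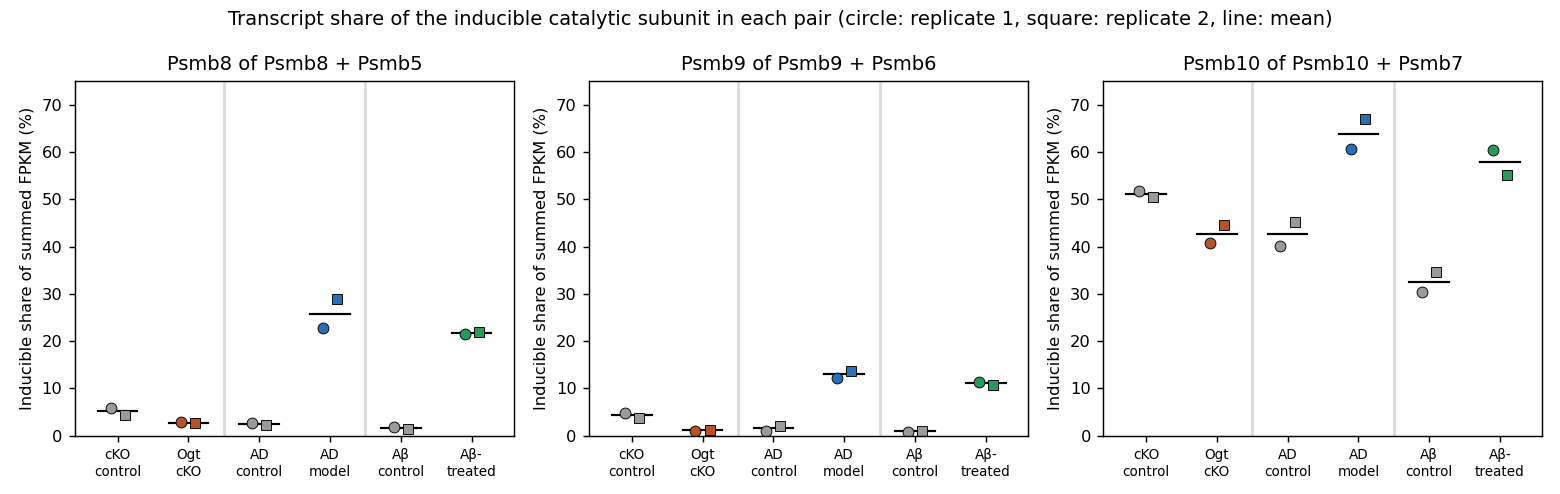
Share of each inducible catalytic gene in the summed FPKM of its pair (%) per library, with group means as lines. In the 4 amyloid libraries the Psmb8 share is 21.6% to 28.9%, and in the other 8 it is 1.46% to 5.90%.

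The differences between experiments were tested directly, as the change in one minus the change in another, each against its own controls. AD model minus Ogt cKO gave 3.33 for Psmb8 (adjusted p = 6.6e-04), 3.33 for Psmb9 (1.6e-04), 0.92 for Psmb10 (0.013) and 1.00 for Psme1 (0.0052), and 0.78 for Psme2, which did not pass (0.19). Aβ minus Ogt cKO gave 3.49, 3.47, 0.92 and 0.78 for the same 4 genes (adjusted p = 2.3e-04, 8.4e-05, 0.0051 and 0.0057), and 0.76 for Psme2 (0.15). The constitutive partners differed in the opposite direction. For Psmb5 the differences were −0.96 (0.025) and −1.10 (0.0066), for Psmb7 −0.77 (0.028) and −1.01 (0.004), and for Psmb6 −0.53 (0.079) and −0.76 (0.012). These negative differences were smaller under other scalings. With quantile normalisation those for Psmb5 were −0.54 (adjusted p = 0.058) and −0.44 (0.068) and that for Psmb6 in Aβ minus Ogt cKO was −0.26 (0.19), and after rescaling to total reads that for Psmb7 in AD model minus Ogt cKO was −0.51 (0.058). Leaving out any 1 of the 4 Ogt experiment libraries ended the Psmb5 and Psmb7 calls in AD model minus Ogt cKO (differences of −1.026 to −0.902 and −0.792 to −0.744). Both were also lost without AD model replicate 2 (differences of −0.94 and −0.718), as was Psmb7 without AD control replicate 1 (−0.594). Leaving out cKO control replicate 1 or Ogt cKO replicate 1 ended the Psmb10 call there (differences of 0.853 and 0.797).

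Over the 42 tested genes, 4 differed upward (9.52%) and 11 downward (26.2%) between AD model and Ogt cKO. Of all genes tested, 11.9% differed upward and 13.7% downward there. Of the 31 constitutive subunits, 10 differed downward (32.3%). Between Aβ and Ogt cKO, 5 differed upward (11.9%) and 30 downward (71.4%). Of all genes tested, 26.6% differed upward and 25.7% downward there, 52.3% in either direction. Of the constitutive subunits, 26 differed downward (83.9%).

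The AD model and Aβ changes were not distinguishable for the inducible genes: the differences were 0.16 ± 0.36 for Psmb8 (adjusted p = 0.83), 0.14 ± 0.27 for Psmb9 (0.79), 0.01 ± 0.20 for Psmb10 (0.99), −0.22 ± 0.17 for Psme1 (0.47) and −0.01 ± 0.42 for Psme2 (0.99). A missed threshold does not show equal responses. Psme4 was the only one of the 42 that passed here, with a difference of 1.13 (adjusted p = 0.046), where 6.14% of all genes tested passed. The call was lost with no filter (adjusted p = 0.093), with rescaling (0.071), with quantile normalisation (0.073) and without 6 of the 8 libraries in turn (0.054 to 0.15). It was singled out after its value was seen.

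Summed levels show both movements side by side. The 5 inducible genes summed to 64.3 and 60.6 FPKM in AD control, 158 and 209 in the AD model, 70.6 and 64.6 in untreated and 195 and 182 in Aβ-treated libraries, but to 74.8 and 68.6 in cKO control and 85.9 and 77.8 in Ogt cKO. The 31 constitutive subunits summed to 1528 and 1477 FPKM in cKO control, 2451 and 2351 in Ogt cKO, 1844 and 1529 in AD control, 1776 and 1823 in the AD model, 2560 and 2248 in untreated and 2073 and 2146 in Aβ-treated libraries. The 3 control groups therefore differed among themselves, and the constitutive sum of the Ogt cKO libraries lay within the range of the untreated Aβ controls.

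Markers of other cell types also differed between the groups, and not always in the direction of these sums. The 12 microglia and macrophage markers summed to 1034 and 1582 FPKM in AD control against 3230 and 5409 in the AD model, and to 2221 and 3701 in untreated against 5912 and 4485 in Aβ-treated libraries, and 8 of 12 rose in the AD model and 4 rose and 2 fell under Aβ. Lyz2 and the C1q genes make up most of this sum. Their sum was highest in the cKO control, at 9002 and 7010 FPKM, where Psmb8, at 6.25 and 4.38 FPKM, was below its level in the amyloid libraries. Single markers of the list differed in direction between the cKO control and the amyloid libraries. Itgam was lower in the cKO control, at 5.10 and 3.45 FPKM against 9.91 to 17.1. So were Ptprc, at 1.51 and 1.15 against 2.71 to 5.94, and Aif1, at 4.92 and 2.44 against 7.71 to 22.2. Csf1r was higher in the cKO control, at 117 and 101 FPKM against 29.9 to 55.2. So were Cx3cr1, at 8.36 and 5.05 against 0.0854 to 1.23, and the C1q genes. Cd68, Lyz2, P2ry12 and Tmem119 overlapped. In Ogt cKO the sum was 3987 and 2994 FPKM, with 5 of 12 lower and 0 higher, in the comparison where Psmb9 fell. The 6 pericyte, smooth muscle and fibroblast markers summed to 1319 and 894 FPKM in cKO control and 4596 and 4629 in Ogt cKO, to 4662 and 2140 in AD control and 1271 and 441 in the AD model, and to 4597 and 3963 in untreated and 697 and 795 in Aβ-treated libraries. This sum was higher in the group with the higher constitutive sum in the Ogt cKO and Aβ experiments, but in the AD experiment it was lower in the AD model while the constitutive sums of the groups overlapped. Acta2 carried most of it in Ogt cKO, at 870 and 420 FPKM in control and 3589 and 3600, and 2 of the 6 markers were called higher there. In the AD model 3 of the 6 fell and 0 rose, and under Aβ 4 fell and 1 rose. The 1 that rose under Aβ, against the sum, was Dcn, at 12.4 and 5.32 FPKM in untreated and 88 and 140 in Aβ-treated libraries. Other lists moved as well. Of 8 astrocyte markers 5 fell in Ogt cKO, from a sum of 395 and 449 to 88.1 and 100 FPKM, 2 fell in the AD model, and 2 rose and 1 fell under Aβ. Of 6 endothelial markers 5 rose in Ogt cKO, 0 in the AD model and 4 under Aβ. Of 4 oligodendrocyte markers 3 fell in Ogt cKO, 3 rose in the AD model and 4 rose under Aβ. Of all genes tested, 22.6% rose and 19.8% fell in Ogt cKO, 9.80% and 7.27% in the AD model, and 20.8% and 15.1% under Aβ. Some marker counts were close to these shares, such as 25% of the astrocyte markers higher and 12.5% lower under Aβ. The part of these marker sets in the results was not tested.

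**Figure D4:**
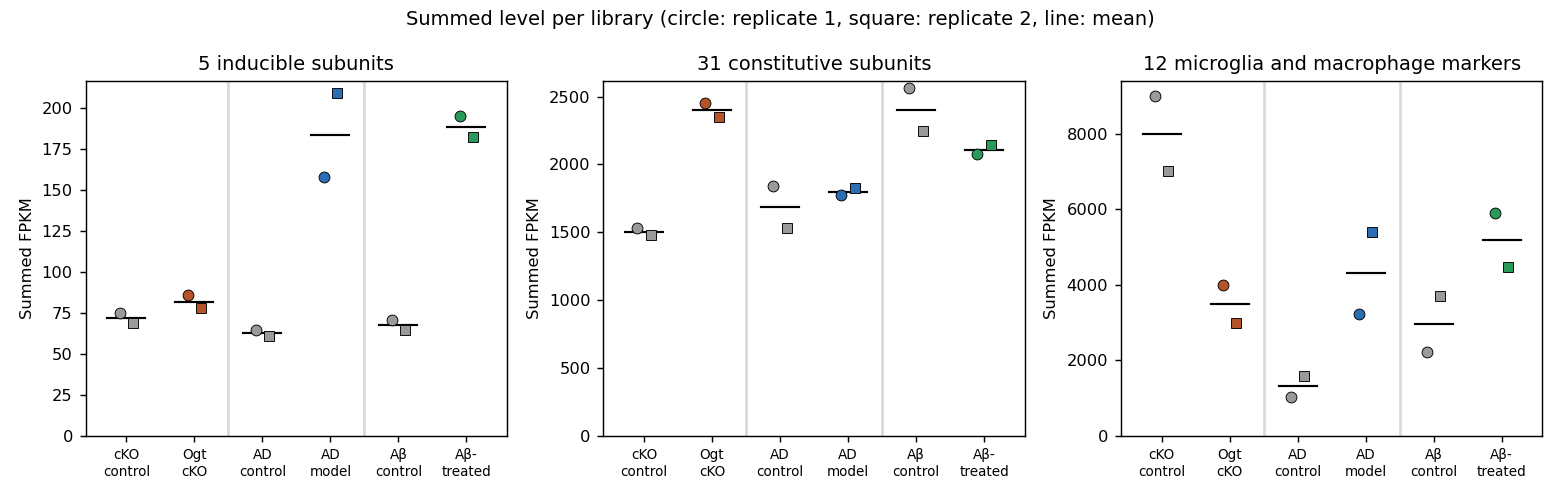
Summed FPKM per library of the 5 inducible genes, the 31 constitutive subunits and 12 microglia and macrophage markers, with group means as lines. The inducible sum is 158 to 209 FPKM in the 4 amyloid libraries and at most 85.9 elsewhere, while the marker sum is highest in the cKO control at 7010 and 9002 FPKM.

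Genes that build, regulate or feed the proteasome were read from a list of 24. In Ogt cKO 8 rose (33.3%, against 22.6% of all genes tested) and 1 fell, among them Sem1, a small 19S subunit, by 0.64 (adjusted p = 0.0052), the ubiquitin receptor Adrm1 by 0.56 (0.012), the shuttle Rad23b by 0.86 (0.013) and the core maturation factor Pomp by 0.56 (0.016). In the AD model 0 passed in either direction. Under Aβ 3 rose and 3 fell (12.5% each way, below the 20.8% and 15.1% of all genes tested): Ddi2, the protease that activates the proteasome gene regulator Nfe2l1, rose by 0.91 (adjusted p = 0.0013) and the deubiquitinase Uchl5 by 0.70 (0.011), while the ligase Ube3c fell by 0.45 (0.014) and Pomp by 0.47 (0.032). Pomp went from 21.6 and 20.2 FPKM to 32.0 and 30.6 in Ogt cKO and from 33.6 and 31.2 to 23.7 and 22.4 under Aβ. Both Pomp calls were lost without any 1 library of their experiment (changes of 0.512 to 0.606 and −0.526 to −0.422), as was that of Rad23b (0.835 to 0.895). That of Adrm1 was lost without cKO control replicate 2 or either Ogt cKO replicate (changes of 0.492 to 0.596). The Sem1 call was lost without cKO control replicate 2 (change of 0.542). Ube3c lost its call without untreated or treated replicate 1 (changes of −0.438 and −0.408). Uchl5 lost its call without untreated replicate 1 or treated replicate 2 (changes of 0.512 and 0.667).

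Of 12 interferon signalling genes, 6 rose and 0 fell in the AD model (50% higher, against 9.80% of all genes tested) and 8 rose and 0 fell under Aβ (66.7%, against 20.8%). In Ogt cKO 1 rose and 2 fell (8.33% and 16.7%), below the 22.6% and 19.8% of all genes tested. Nlrc5, the transactivator of MHC class I genes, rose by 2.48 in the AD model (adjusted p = 6.0e-06) and 2.52 under Aβ (5.2e-06), from 0.204 to 0.366 FPKM in the 4 control libraries to 5.49 to 6.68 FPKM. Stat2, a signal transducer of the type I interferon receptor, rose by 2.91 in the AD model (adjusted p = 4.9e-05) and 2.80 under Aβ (4.4e-05). In Ogt cKO, Stat2 fell by 0.75 (adjusted p = 0.024), a call lost without 3 of the 4 libraries in turn (0.091 to 0.15).

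Of 10 antigen processing genes, 7 rose in the AD model (70%, against 9.80% of all genes tested). Under Aβ 7 rose and 1 fell (70% higher, against 20.8%). Canx, Calr and Pdia3 rose in neither, and the 1 that fell was Calr. In Ogt cKO 1 rose, Pdia3, and 2 fell (10% and 20%), near or below the 22.6% and 19.8% of all genes tested. Tap1, which carries peptides into the endoplasmic reticulum, had 6.36 and 6.99 FPKM in AD control and 28.9 and 40.7 in the AD model (2.20, adjusted p = 4.6e-05), and 7.61 and 7.47 FPKM in untreated and 28.1 and 31.9 in Aβ-treated libraries (1.86, adjusted p = 8.7e-05). The MHC class I heavy chain H2-K1 rose by 3.91 (4.1e-05) and 3.52 (5.3e-05), and the light chain B2m by 2.83 (5.0e-05) and 2.80 (4.0e-05). In Ogt cKO the class I heavy chain H2-D1 fell by 1.10 (adjusted p = 0.023) and the peptide-trimming peptidase Erap1 by 1.05 (0.0072), where the H2-D1 call was lost without any 1 library (0.073 to 0.12).

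The 10 genes outside the set whose log2 levels followed the mean standardised level of the 5 inducible genes most closely over the 12 libraries were Znfx1, B2m, Cd274, Gm12250, Tap1, Ly9, Galnt6, Ube2l6, Rnf213 and Irf7, with Pearson r from 0.987 to 0.994. The 12 points share group structure and library depth, so r is given as a description. Irf7, an interferon regulatory factor, had 0.795 to 3.18 FPKM in the 8 libraries outside the amyloid groups and 112 to 143 FPKM in the 4 amyloid libraries. Cd274, the gene of the checkpoint ligand PD-L1, had 1.03 to 2.81 FPKM in those 8 libraries and 25.1 to 48.0 FPKM in the 4.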

How the data were processed

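RNA-seq was measured in 12 mouse astrocyte libraries, 2 in each of 6 groups. The deposited table holds 1 FPKM value per gene and library. Per the submitters' processing notes the build was mm10, and the aligner, the counter and the strandedness are each not given in the sources used here. FPKM values multiplied by gene length gave whole reads within 0.1 in every library, which gave the depths stated above. The changes were computed with limma 3.58.1 (R 4.3.3) on log2(FPKM + 1): 1 mean per group over all 12 libraries, an intensity trend, 6 residual degrees of freedom, Benjamini-Hochberg adjustment over 14014 genes that reached 1 FPKM in at least 2 libraries, and a threshold of 0.05. Differences between experiments are contrasts of the same fit. The fit was tested on simulated data. Groups were taken from the sample labels. All subunits are accounted for, and values per library are given for the inducible and catalytic genes, up to 4 constitutive genes per comparison with the largest called changes, and up to 4 genes per pathway list by p. The gene set, defined by symbol, and the lists were proposed with earlier results of these data known. Alternatives were other pseudocounts, filters, scalings, voom on recovered reads, a replicate block, each experiment alone and leaving out each library. Promoter sequences are from RefSeq, GRCm38.p6, with no entry for 7 of the 43 genes. Pseudogene copies of the subunits were at 0.442 FPKM or less.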

Additional observations from a re-analysis of the deposited data

Results flagged for a closer look

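For these genes the change in an amyloid experiment differed from the change in the Ogt cKO experiment in the test of the difference itself. Between AD model and Ogt cKO the differences on the log2 scale were 3.33 for Psmb8, 3.33 for Psmb9, 0.92 for Psmb10, 1.00 for Psme1, −0.96 for Psmb5 and −0.77 for Psmb7. Between Aβ treatment and Ogt cKO they were 3.49 for Psmb8, 3.47 for Psmb9, 0.92 for Psmb10, 0.78 for Psme1, −1.10 for Psmb5, −0.76 for Psmb6 and −1.01 for Psmb7. With quantile normalisation the Psmb5 differences no longer passed (−0.54, adjusted p = 0.058, and −0.44, 0.068), nor did the Psmb6 difference (−0.26, 0.19), and after rescaling to total reads the Psmb7 difference to the AD model did not pass (−0.51, 0.058). The AD model minus Ogt cKO calls of Psmb5, Psmb7 and Psmb10 were also lost in some runs that left out 1 library. The differences in those runs were −1.026 to −0.902 for Psmb5, −0.792 to −0.594 for Psmb7, and 0.797 and 0.853 for Psmb10. Psme2 passed in neither comparison (adjusted p = 0.19 and 0.15). Between Aβ treatment and AD model the difference for Psme4, the PA200 activator gene, was 1.13 (adjusted p = 0.046, and 0.071 and 0.073 under the other scalings).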

How the results depend on the processing

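No alternative run reversed the direction of a called change of the inducible and catalytic genes, the other subunits named with a change or the pathway genes recomputed (the marker genes were not). With no filter on low values, the Ogt cKO comparison had 1 gene lower (2 in the main analysis), the AD comparison 0 constitutive genes higher (2), and the Aβ comparison 3 genes lower (5) and 0 constitutive genes higher (2). After rescaling to total reads, 19 constitutive genes were higher in Ogt cKO (29) and 3 genes lower under Aβ. Quantile normalisation gave 18 genes higher in Ogt cKO (32), 15 of them constitutive, and 3 genes lower under Aβ, 1 of them constitutive (3). Each experiment alone gave 2 genes higher in the AD model (8), 2 inducible (4) and 0 constitutive, and under Aβ 3 genes lower and 1 constitutive gene higher. The share of all genes called moved as well. Higher in Ogt cKO were 8.72% with no filter, where 30418 genes were tested, 15.7% after rescaling and 18.7% with quantile normalisation (22.6%). Lower under Aβ were 5.93%, 12.2% and 18.4% in the same runs and 19% with that experiment alone (15.1%). Higher in the AD model were 4.2% with no filter and 1.71% with that experiment alone (9.80%). With no filter, 7.39% were lower in Ogt cKO (19.8%) and 9.91% higher under Aβ (20.8%). The causes of these shifts were not tested. Leaving out 1 library gave 10 to 21 genes higher and 0 to 1 lower in Ogt cKO, with 8 to 18 constitutive genes higher and an inducible minus constitutive median of −0.608 to −0.450. In the AD comparison it gave 4 to 6 genes higher, 4 to 5 inducible, 0 to 1 constitutive and a median difference of 1.026 to 1.393. Under Aβ it gave 6 to 8 genes higher and 0 to 5 lower, 4 inducible genes higher, 0 to 2 constitutive genes higher and 0 to 5 lower, and a median difference of 1.333 to 1.582. The inducible genes called numbered 3 to 5 for AD minus Ogt cKO (4) and 4 for Aβ minus Ogt cKO (4). With no filter, Psmb5 for AD minus Ogt cKO had an adjusted p of 0.053.

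The labels do not say that a replicate number marks a shared batch. Deviations of same-numbered samples correlated by 0.0332 in the Ogt cKO, 0.551 in the AD and −0.169 in the Aβ experiment. With the replicate block, 1 constitutive gene was higher under Aβ (2), and Psme2 passed in the AD model (0.95, adjusted p = 0.048). With the crossed pairing in the Aβ experiment, chosen after seeing the data, 11 genes were lower under Aβ, 9 of them constitutive.

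With 2 libraries per group, single samples decide many calls of modest size, while the Psmb8 and Psmb9 changes in the amyloid experiments passed throughout. Depth limits Psma8, with as few as 9 reads, and Psmb11.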
